A study of Mus musculus with 8 samples.

Results

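Among Nes-GFP-negative stromal cells of newborn bones, the receptor Pdgfra at the cell surface separates a GFP- Pdgfra+ fraction from a GFP- Pdgfra- fraction, and the comparison of their transcripts is described here. It uses 4 of the 8 libraries of the series, the 2 of GFP- Pdgfra+ cells and the 2 of GFP- Pdgfra- cells, taken by their sort labels and not by any measured value, and every gene of the table. All cells came from pups heterozygous for Nes-Gfp on a C57BL/6 background at postnatal day 1. The transgene puts GFP under regulatory elements of the rat nestin gene, so the sort reads the transgene and not the mouse Nes gene. Femora, tibiae, scapulae, humeri and radii were crushed and digested with collagenase. The paper gives long bones and sterna as the elements pooled for sequencing. Each library is a pool of 3 pups, and 15000 to 80000 cells negative for CD45, CD31 and Ter119 were sorted per sample and their RNA amplified to cDNA. The other 4 libraries, 2 of GFP+ Pdgfra+ and 2 of GFP+ Pdgfra- cells from the same preparation, enter the estimate of the spread and the comparisons named as such.

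The values are normalized signals for 15880 genes, equal to the reads of a gene plus 0.5 per 1000000 of an effective library size, and they are called values below. The libraries held 3869275 and 3221217 reads on genes in GFP- Pdgfra+ cells, 4058258 and 5302762 in GFP- Pdgfra- cells, 3564158 and 3329432 in GFP+ Pdgfra+ cells and 3644103 and 3427644 in GFP+ Pdgfra- cells. A value of 3 reads lies between 0.825 and 1.04, and a population with at most 3 reads in both libraries is said to be at the floor, with folds against it given as lower bounds. Genes were tested with limma on log2(value + 1) in a fit over all 8 libraries, and a gene is called at a Benjamini-Hochberg adjusted p of at most 0.05 over all genes. Exact permutation of 2 against 2 libraries has 0.333 as its smallest p, so every call depends on limma borrowing the variance across genes. Log2 fold changes are GFP- Pdgfra+ over GFP- Pdgfra- cells unless another pair is named. Where a gene is said to have the highest value of a list or group, values are ranked without correction for exon length. Gene coordinates are those of build NCBIM37.

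Pdgfra is a receptor tyrosine kinase for platelet-derived growth factors and marks mesenchymal cells in the connective tissues of the limb. Tenocytes, the fibroblasts of tendon and ligament, depend on the transcription factors scleraxis (Scx) and Mohawk (Mkx), and they make aligned collagen I with tenomodulin, fibromodulin and thrombospondins. Chondrocytes depend on Sox9 with Sox5 and Sox6, and they surround themselves with collagens II, IX and XI, aggrecan and link protein.

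The sort markers follow the label. Pdgfra itself (chr5:75548316-75594229, plus strand) had values of 839 and 794 in GFP- Pdgfra+ and 3.30 and 4.36 in GFP- Pdgfra- cells (log2 fold change 7.41, standard error 0.22, limma adjusted p = 1.26e-10). The receptor transcript was thus abundant in both positive libraries and near the floor in both negative ones, as the sort selects, and it is no finding about the fraction. Nes, the intermediate filament gene whose rat counterpart lends the transgene its control elements, was 27.4 and 47.1 in GFP- Pdgfra+ and 3.59 and 9.08 in GFP- Pdgfra- cells (log2 fold change 2.44, limma adjusted p = 5.30e-05), and both GFP- Pdgfra+ libraries were above both GFP- Pdgfra- ones although all of these cells lacked GFP. Ly6a, which encodes the surface antigen Sca1, was 148 and 102 in GFP- Pdgfra+ and 1.01 and 2.00 in GFP- Pdgfra- cells (log2 fold change 5.66, limma adjusted p = 3.47e-08). The proteoglycan gene Cspg4 (NG2), known from pericytes, was 255 and 259.7 in GFP- Pdgfra+ and 10.5 and 27.7 in GFP- Pdgfra- cells (log2 fold change 3.83, limma adjusted p = 9.19e-07). None of these pairs of libraries overlapped.

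The GFP- Pdgfra- libraries carry transcripts of other cell types. Of 32 erythroid genes 27 are in the table, and their summed value was 24588 and 33227 in the GFP- Pdgfra- libraries against 164 and 155 in the GFP- Pdgfra+ libraries. The highest value was that of the beta-globin gene Hbb-b1, at 4362 and 7619 against 19 and 12.9, and in the GFP- Pdgfra+ libraries 11 and 11 of the 27 had at most 3 reads. Ter119 had been used to remove erythroid cells, and transcripts of this lineage are nevertheless present in the GFP- Pdgfra- libraries. Genes of the granulocyte and myeloid list, 19 of 25 in the table, summed to 178 and 167 in GFP- Pdgfra- and 52.8 and 31.3 in GFP- Pdgfra+ cells, with Laptm5 having the highest value in the former (32.3 and 39.5) and Lyz2 and Lcn2 in the latter. Of 16 megakaryocyte and mast cell genes 7 are in the table, with sums of 383 and 308 against 11.0 and 9.65, and in GFP- Pdgfra- cells most of it came from the stem cell factor receptor gene Kit, at 347 and 266 against 2.14 and 3.71. Of 12 B lymphoid genes only 4 are in the table, and their sums of 3137 and 3079 against 48.9 and 42.2 come almost wholly from Cd24a, a surface antigen that erythroid precursors carry too. What part these transcripts have in the differences reported below was not tested. In bulk libraries, fewer cells of a type cannot be told apart from less RNA per cell.

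The lists of other lineages had smaller sums than the erythroid list had in GFP- Pdgfra- cells. Endothelial genes (17 of 19 in the table) summed to 135 and 150.1 in GFP- Pdgfra+ and 79.1 and 238 in GFP- Pdgfra- libraries, with the highest values from Ramp2 and Erg in the GFP- Pdgfra+ libraries and 7 and 5 members at most at 3 reads there. The 22 skeletal muscle genes summed to 94.5 and 102 against 119 and 79.9, with the highest value from the giant sarcomere gene Ttn, against 3180.4 and 2919 in GFP+ Pdgfra- cells. The Schwann cell precursor genes (17 of 18) summed to 115 and 122 against 183 and 191, with the neurotrophin receptor gene Ngfr, which mesenchymal cells share, having the highest value in GFP- Pdgfra+ cells and Mbp in GFP- Pdgfra- cells. Pericyte and smooth muscle genes (15 of 16) summed to 851 and 853 against 118 and 189, and Cspg4 had the highest value in GFP- Pdgfra+ cells. Osteoclast genes (7 of 12) summed to 361 and 343 against 127 and 124, with the highest value from Nfatc1 in GFP- Pdgfra+ and from the acid phosphatase gene Acp5 in GFP- Pdgfra- cells. For keratinocytes 6 of 12 genes are in the table, and the sums were 9.58 and 8.61 against 2.59 and 3.07, with the highest values from Trp63 and Sfn. The calls within these lists, higher and lower in GFP- Pdgfra+ cells, were 3 and 5 of 17 for endothelium, 6 and 4 of 22 for muscle, 4 and 3 of 17 for Schwann cell precursors, 7 and 2 of 15 for pericytes, 3 and 2 of 7 for osteoclasts and 0 of 6 for keratinocytes. Of all genes 32.9% and 26.8% were called higher and lower. With centring on the library median the calls of the lists became 3 and 7 for endothelium, 2 and 5 for muscle and 4 and 6 for Schwann cell precursors. With quantile normalization they were 3 and 10, 1 and 5 and 4 and 5. For muscle and Schwann cell precursors the majority of calls thus turned from higher to lower. The median log2 fold changes of the 6 lists, in this order, were -0.85, -0.01, 0.00, 0.64, 0.96 and 0.41, and with members at the floor set to their bound -0.85, 0.00, 0.00, 0.57, 0.53 and 0.16. The medians of the Schwann cell precursor and keratinocyte lists turned negative with quantile normalization and with centring.

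**Figure D1:**
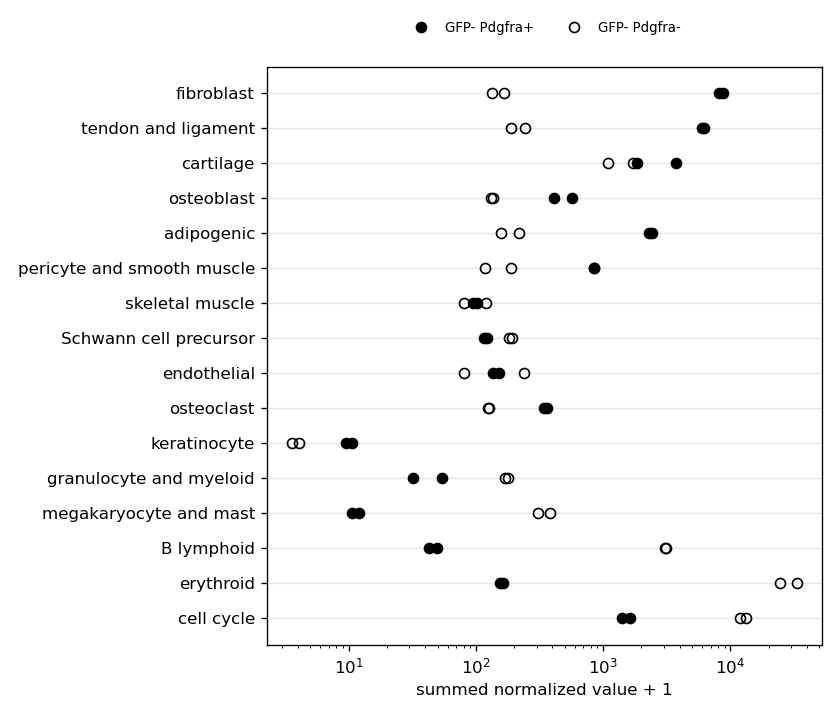
Summed value of the marker genes of each cell type (horizontal log axis, normalized value + 1) in each library of GFP- Pdgfra+ cells (filled circles) and GFP- Pdgfra- cells (open circles), 1 row per list and 2 points per population. The erythroid list separates the populations in favour of GFP- Pdgfra- cells, with 24588 and 33227 against 164 and 155, and the fibroblast list in favour of GFP- Pdgfra+ cells, with 8812 and 8156 against 133 and 167.

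The split by Pdgfra went with a difference in most of the transcriptome. In limma, 9476 of 15880 genes (59.7%) were called between GFP- Pdgfra+ and GFP- Pdgfra- cells, 5226 of them higher (32.9% of all genes) and 4250 lower (26.8%) in GFP- Pdgfra+ cells. The median log2 fold change of all genes was 0.17 and serves as the background for each list. The split into higher and lower depends on the scaling. With each library centred on its median, 3913 genes were higher and 5720 lower, the median of all genes was -0.28, and each change lies about 0.45 lower than given here. With quantile normalization the calls were 4249 higher and 5086 lower around a median of -0.15. Changes of several log2 units, as in the genes and lists named next, are large beside these shifts, while those under 0.5 are not. Where libraries of named genes are said not to overlap, no share of all genes is given, so this describes the single genes only.

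Several of the 15 largest increases were in genes of the extracellular matrix. Tenascin X (Tnxb, chr17:34807480-34856760, plus strand), a glycoprotein that binds collagen fibrils and whose loss makes connective tissue lax, was 1310.2 and 1295 in GFP- Pdgfra+ and 2.73 and 2.00 in GFP- Pdgfra- cells (log2 fold change 8.61, standard error 0.14, limma adjusted p = 8.52e-12). Kctd12, an auxiliary subunit of GABA-B receptors, was 271 and 244 in the GFP- Pdgfra+ libraries and at the floor in both GFP- Pdgfra- libraries, so it was at least 256-fold higher (limma adjusted p = 1.45e-05). Separate libraries were a condition for naming these 15 genes. The microfibril glycoprotein gene Mfap5 was 447 and 418 in GFP- Pdgfra+ and 1.01 and 2.48 in GFP- Pdgfra- cells (log2 fold change 7.36, limma adjusted p = 4.10e-10), and dermatopontin (Dpt), which binds decorin and collagen, was 435 and 311 in GFP- Pdgfra+ and 3.02 and 1.06 in GFP- Pdgfra- cells (log2 fold change 7.0, limma adjusted p = 7.85e-10). Versican (Vcan), the large chondroitin sulfate proteoglycan of loose connective tissue, was 3914 and 3279 in GFP- Pdgfra+ and 15.9 and 32.2 in GFP- Pdgfra- cells (log2 fold change 7.24, limma adjusted p = 2.18e-10).

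Genes of signalling were also in this group. Sfrp1, a secreted antagonist of Wnt ligands, was 357 and 412 in GFP- Pdgfra+ and 1.58 and 1.30 in GFP- Pdgfra- cells (log2 fold change 7.30, limma adjusted p = 4.00e-11). Agtr2, the angiotensin II type 2 receptor, was 1047 and 989 in GFP- Pdgfra+ and 5.60 and 5.54 in GFP- Pdgfra- cells (log2 fold change 7.28, limma adjusted p = 2.20e-11). The growth factor gene Igf1 was 1826 and 1782 in GFP- Pdgfra+ and 10.8 and 17.3 in GFP- Pdgfra- cells (log2 fold change 6.94, limma adjusted p = 1.82e-10). Here too the separation of the libraries was set by the choice. The matricellular gene Nov (Ccn3) was 353 and 311 in GFP- Pdgfra+ and 2.15 and 1.53 in GFP- Pdgfra- cells (log2 fold change 6.88, limma adjusted p = 1.17e-10), and Anpep, the aminopeptidase known as CD13, was 338 and 339.6 in GFP- Pdgfra+ and 1.58 and 2.48 in GFP- Pdgfra- cells (log2 fold change 6.83, limma adjusted p = 1.01e-10). Pdgfra was the third largest increase, and the remaining 4 of the 15, Abca9 (a lipid transporter), Angptl1 (an angiopoietin-like secreted protein), Col6a6 (a collagen VI chain) and Gas7 (a cytoskeletal adaptor), had log2 fold changes of 6.77, 6.66, 6.65 and 6.65 in limma.

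The 10 genes called higher that had the highest values in GFP- Pdgfra+ cells include collagens and imprinted genes. Per kilobase of exon, the mean in GFP- Pdgfra+ cells was 2453 for Col1a1, the first chain of collagen I, 3013 for the imprinted RNA H19, 2649 for Sparc (osteonectin), 2444 for the growth factor Igf2, 1529.6 for Postn (periostin) and 1314 for Col3a1. In GFP- Pdgfra- cells the same quantities were 75.8, 78.8, 145, 62.1, 23.0 and 13.6. As values, Postn stood at 11988 and 11989 in GFP- Pdgfra+ and 166 and 195 in GFP- Pdgfra- cells (log2 fold change 6.05, limma adjusted p = 2.20e-11), and Col3a1 at 11278 and 10779 in GFP- Pdgfra+ and 122 and 106 in GFP- Pdgfra- cells (log2 fold change 6.59, limma adjusted p = 1.42e-11). The paired libraries were close in each population, and the populations were far apart. Col1a2, Col12a1, the imprinted zinc finger gene Peg3 and the nuclear RNA Malat1 complete the 10, with log2 fold changes of 5.06, 5.41, 5.21 and 1.45. The call of Malat1 was lost with quantile normalization (limma adjusted p = 0.766, range 7.60e-23 to 0.766 over all alternatives).

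Tendon and ligament genes were higher throughout. Like all lists here, this one was chosen with earlier results of these data known, so its counts are not independent of them. All 15 members of this list were called higher in GFP- Pdgfra+ cells, where 32.9% of all genes were, and the median log2 fold change was 3.95, or 4.21 with the 2 members at the floor in GFP- Pdgfra- cells set to their bound, against 0.17 for all genes. The summed value of the list was 5996 and 6187 in the GFP- Pdgfra+ and 187 and 244 in the GFP- Pdgfra- libraries. With centring on the library median or quantile normalization 14 and 14 of the 15 were called higher, none was called lower, and the median stayed above 3. Both tendon transcription factors took part. Scx (chr15:76287868-76289898, plus strand), which specifies tendon progenitors, was 7.94 and 10.8 in GFP- Pdgfra+ and 0.431 and 0.590 in GFP- Pdgfra- cells, at least 9.34-fold higher (limma adjusted p = 4.10e-05). Its values were low in both GFP- Pdgfra+ libraries too. Mkx, the homeobox gene that tendon maturation needs, was 42.0 and 39.1 in GFP- Pdgfra+ and 3.59 and 1.77 in GFP- Pdgfra- cells (log2 fold change 3.54, limma adjusted p = 6.16e-06). Neither gene had overlapping libraries.

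The products of mature tendon cells followed these factors. Tenomodulin (Tnmd, chrX:130385519-130400116, plus strand), a membrane glycoprotein typical of tenocytes, was 407 and 360.1 in GFP- Pdgfra+ and 18.0 and 19.9 in GFP- Pdgfra- cells (log2 fold change 4.27, standard error 0.21, limma adjusted p = 6.34e-09). Thrombospondin 4 (Thbs4), which binds collagen in the tendon matrix, was 2265 and 2229 in GFP- Pdgfra+ and 46.7 and 53.4 in GFP- Pdgfra- cells (log2 fold change 5.46, standard error 0.14, limma adjusted p = 4.95e-11). Fibromodulin (Fmod), which governs the growth of collagen fibrils, was 1019 and 1168 in GFP- Pdgfra+ and 27.7 and 58.4 in GFP- Pdgfra- cells (log2 fold change 4.72, standard error 0.27, limma adjusted p = 2.19e-08). In all 3 the GFP- Pdgfra+ libraries lay far above the others, and replicate 2 of GFP- Pdgfra- cells had the higher residual level. Keratocan (Kera), a small proteoglycan of cornea and tendon, was 113 and 99.0 in GFP- Pdgfra+ and 6.46 and 7.66 in GFP- Pdgfra- cells (log2 fold change 3.73, limma adjusted p = 3.36e-06). Thrombospondin 2 (Thbs2), which shapes collagen fibrils, was 1009 and 1032 in GFP- Pdgfra+ and 17.1 and 27.0 in GFP- Pdgfra- cells (log2 fold change 5.5, limma adjusted p = 1.97e-10), and tenascin C (Tnc), found at the junction of muscle and tendon, was 589 and 533 in GFP- Pdgfra+ and 28.9 and 29.8 in GFP- Pdgfra- cells (log2 fold change 4.21, limma adjusted p = 4.75e-10). Cilp and Cilp2, matrix proteins of joint and tendon, were 340.5 and 468 and 16.5 and 29.8 in GFP- Pdgfra+ cells, against 6.18 and 9.08 and 0.431 and 0.590 in GFP- Pdgfra- cells. Cilp had a log2 fold change of 5.56 (limma adjusted p = 8.81e-09), and Cilp2 was at least 23.1-fold higher (limma adjusted p = 4.46e-06). The populations were again fully apart for each of these genes, in a comparison where 59.7% of all genes were called.

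The remaining members had smaller changes or lower levels. Comp, a pentameric protein of cartilage and tendon, was 68.5 and 89.5 in GFP- Pdgfra+ and 20.2 and 22.8 in GFP- Pdgfra- cells (log2 fold change 1.82, limma adjusted p = 3.21e-04), so it was well above the floor in GFP- Pdgfra- cells too. Fgf18, a growth factor of the developing skeleton, was 66.4 and 87.8 in GFP- Pdgfra+ and 1.87 and 1.77 in GFP- Pdgfra- cells (log2 fold change 4.78, limma adjusted p = 8.35e-08). The pentraxin gene Ptx4 and Kctd1 had log2 fold changes of 3.13 and 2.38. Egr2, an early growth response factor that acts in tendon collagen expression, had the smallest change of the list, with 15.8 and 16.2 in GFP- Pdgfra+ and 6.75 and 8.61 in GFP- Pdgfra- cells (log2 fold change 0.98, limma adjusted p = 0.00827). It lost its call with quantile normalization (limma adjusted p = 0.108), with centring (limma adjusted p = 0.102) and in voom on recovered reads (limma adjusted p = 0.11). Its adjusted p over all alternatives with a test lay between 0.00499 and 0.11.

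**Figure D2:**
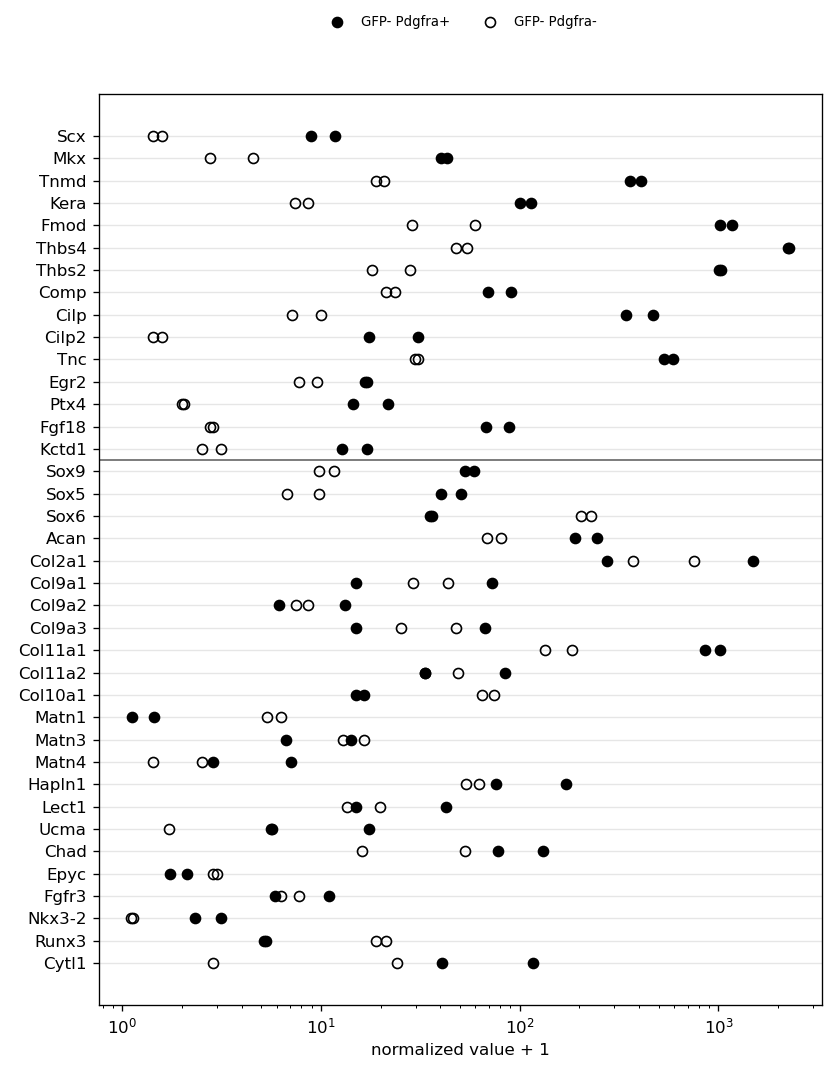
Normalized value + 1 (horizontal log axis) of each tendon and ligament gene (upper rows) and each cartilage gene (lower rows) in the single libraries of GFP- Pdgfra+ cells (filled circles) and GFP- Pdgfra- cells (open circles), 2 points per population. Tendon genes are separated in every row, Tnmd for example at 407 and 360.1 against 18.0 and 19.9. Cartilage genes are divided. Some overlap, such as Col2a1 (273 and 1498 against 371 and 753), and others are separate, such as Acan (189 and 245 against 67.4 and 80.1).

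Because the tendon genes moved together, promoters of some of them are shown, each with 250 bases before and 50 after the start of the gene. Of the 15 genes of the list, 10 had an entry in the RefSeq promoter table of build GRCm38.p6. The 4 printed are those with a single start among the 5 members of highest mean. Capitals mark matches to the E-box CANNTG, the letters that basic helix-loop-helix factors such as scleraxis recognize, which read alike on both strands. The E-box was found in 72.3% of all 32851 promoters of the table, so a match is common, describes the letters and shows no binding. Of the 15 promoters listed for tendon genes, 11 (73.3%) had a match.
Cilp, chr9:65264930-65265229, plus strand: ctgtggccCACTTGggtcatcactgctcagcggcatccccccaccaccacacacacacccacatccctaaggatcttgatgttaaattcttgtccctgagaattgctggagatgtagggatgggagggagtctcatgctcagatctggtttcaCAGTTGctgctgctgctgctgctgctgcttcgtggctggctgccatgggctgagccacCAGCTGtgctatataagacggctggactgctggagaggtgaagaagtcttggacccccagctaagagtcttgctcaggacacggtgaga
Fmod, chr1:134037004-134037303, plus strand: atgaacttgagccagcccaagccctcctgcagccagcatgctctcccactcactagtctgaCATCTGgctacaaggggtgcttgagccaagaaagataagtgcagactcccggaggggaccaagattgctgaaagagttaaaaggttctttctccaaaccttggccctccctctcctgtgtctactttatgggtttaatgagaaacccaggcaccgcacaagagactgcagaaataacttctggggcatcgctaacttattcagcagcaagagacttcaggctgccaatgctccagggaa
Thbs2, chr17:14694213-14694512, minus strand: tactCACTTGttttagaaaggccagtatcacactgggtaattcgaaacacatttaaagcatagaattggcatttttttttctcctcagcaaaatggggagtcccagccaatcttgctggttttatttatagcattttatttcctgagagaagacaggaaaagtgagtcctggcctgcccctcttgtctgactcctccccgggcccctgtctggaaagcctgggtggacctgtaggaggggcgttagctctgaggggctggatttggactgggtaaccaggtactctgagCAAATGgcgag
Thbs4, chr13:92794769-92795068, minus strand: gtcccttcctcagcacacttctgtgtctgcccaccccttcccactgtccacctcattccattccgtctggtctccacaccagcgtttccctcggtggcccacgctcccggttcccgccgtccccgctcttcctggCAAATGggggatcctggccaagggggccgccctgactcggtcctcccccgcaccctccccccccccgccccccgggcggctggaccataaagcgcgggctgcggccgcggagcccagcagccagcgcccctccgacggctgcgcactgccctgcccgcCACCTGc
The matches number 3 in Cilp, 1 in Fmod, 2 in Thbs2 and 2 in Thbs4.

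Cartilage genes were divided. Of 24 members in the table (25 in the list), 11 were called higher in GFP- Pdgfra+ cells, 4 lower, and 9 were not called, where 32.9% and 26.8% of all genes were called higher and lower. With centring on the library median 6 and 5 were called higher and lower, and with quantile normalization 9 and 5. The median log2 fold change was 0.51 against 0.17 for all genes, also with the 2 members at the floor set to their bound, and 0.05 against -0.28 with centring on the library median. The summed value was 1829 and 3748 in the GFP- Pdgfra+ and 1099 and 1708 in the GFP- Pdgfra- libraries, so both GFP- populations held cartilage transcripts. The chondrogenic regulators Sox9 and Sox5 were higher in GFP- Pdgfra+ cells. Sox9, the master regulator of chondrocytes, which tendon and ligament progenitors also express, was 57.9 and 52.1 in GFP- Pdgfra+ and 8.76 and 10.7 in GFP- Pdgfra- cells (log2 fold change 2.39, limma adjusted p = 1.24e-05). Sox5 was 39.5 and 49.7 in GFP- Pdgfra+ and 8.76 and 5.78 in GFP- Pdgfra- cells (log2 fold change 2.48, limma adjusted p = 5.79e-06), while its partner Sox6, which also acts in erythroid cells, was lower, at 34.4 and 35.5 in GFP- Pdgfra+ and 204 and 227 in GFP- Pdgfra- cells (log2 fold change -2.59, limma adjusted p = 6.98e-08). Matrix genes that were higher included Acan (aggrecan), at 189 and 245 in GFP- Pdgfra+ and 67.4 and 80.1 in GFP- Pdgfra- cells (log2 fold change 1.54, limma adjusted p = 1.00e-04), and Col11a1, at 854 and 1020.0 in GFP- Pdgfra+ and 133 and 183 in GFP- Pdgfra- cells (log2 fold change 2.57, limma adjusted p = 2.35e-07). For these 5 genes no libraries overlapped.

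Collagens II and IX of hyaline cartilage were not called. Col2a1, the chain of collagen II, had values of 273 and 1498 in GFP- Pdgfra+ and 371 and 753 in GFP- Pdgfra- cells, and replicate 2 of GFP- Pdgfra+ cells alone was the highest (log2 fold change 0.28, limma adjusted p = 0.757). The sign of this change turned to -0.95 without that library and to -0.23 without replicate 1 of GFP- Pdgfra- cells. Col9a1 and Col9a3, chains of the collagen IX that coats its fibrils, had the same pattern, with 14.0 and 72.0 and 14.0 and 65.8 in GFP- Pdgfra+ cells and 28.3 and 42.8 and 24.3 and 47.0 in GFP- Pdgfra- cells. Replicate 2 of GFP- Pdgfra+ cells was thus the highest of the 4 libraries for all 3 genes and replicate 1 the lowest. Also not called were Col9a2, Col11a2, Matn3, Lect1 (chondromodulin), Epyc and Fgfr3. Col10a1, the collagen of hypertrophic chondrocytes, was lower in GFP- Pdgfra+ cells, at 15.5 and 14.1 in GFP- Pdgfra+ and 63.9 and 73.5 in GFP- Pdgfra- cells (log2 fold change -2.14, limma adjusted p = 7.02e-04), and so was Runx3, a factor of chondrocyte hypertrophy and of blood cells (4.16 and 4.31 in GFP- Pdgfra+ and 20.2 and 18.0 in GFP- Pdgfra- cells, log2 fold change -1.94, limma adjusted p = 2.65e-04). Matn1, a matrilin of cartilage, was at the floor in GFP- Pdgfra+ cells and 5.31 and 4.36 in GFP- Pdgfra- cells, at least 4.65-fold lower (limma adjusted p = 1.64e-04).

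Among the remaining cartilage genes called higher, several lost the call without a single library or under another alternative. Hapln1, the link protein of aggrecan, was 75.5 and 171 in GFP- Pdgfra+ and 53.0 and 61.2 in GFP- Pdgfra- cells (limma adjusted p = 0.035), and was not called without replicate 2 of GFP- Pdgfra+ cells (limma adjusted p = 0.41) or without either GFP- Pdgfra- library (0.125 and 0.0642), nor without either GFP+ Pdgfra- library (0.0605 and 0.0603). Its adjusted p ranged from 0.00571 to 0.41 over all alternatives. Chondroadherin (Chad) was 77.3 and 129.9 in GFP- Pdgfra+ and 15.1 and 52.2 in GFP- Pdgfra- cells (limma adjusted p = 0.0242), and cytokine-like 1 (Cytl1) was 40.0 and 115 in GFP- Pdgfra+ and 1.87 and 23.2 in GFP- Pdgfra- cells (limma adjusted p = 0.0109). In both genes the GFP- Pdgfra- libraries differed from each other by a larger factor than the GFP- Pdgfra+ libraries did. Without replicate 2 of GFP- Pdgfra+ cells the adjusted p in limma was 0.177 for Chad and 0.123 for Cytl1, and without replicate 1 of GFP- Pdgfra- cells 0.235 and 0.126. Over all alternatives it ranged from 0.00218 to 0.248 for Chad and from 1.38e-04 to 0.178 for Cytl1. Ucma and Matn4, matrix proteins of cartilage, and the homeobox gene Nkx3-2 were called at low values, none above 16.5 in a GFP- library. Ucma was not called without replicate 2 of GFP- Pdgfra+ cells (limma adjusted p = 0.299), without replicate 1 of GFP- Pdgfra- cells (0.313) or without either GFP+ Pdgfra- library (0.0548 and 0.0544), with a range of 0.00609 to 0.313 over all alternatives. For Nkx3-2 the adjusted p in limma and the other tools ranged from 0.00176 to 0.126 and kept its call without any single library. Matn4 was not called without replicate 2 of GFP- Pdgfra+ cells (limma adjusted p = 0.352), without replicate 1 of GFP- Pdgfra- cells (0.248) or without either GFP+ Pdgfra- library (0.0636 and 0.0637), with a range of 0.0105 to 0.352 over all alternatives. Calls were also lost under other alternatives, given here with the adjusted p of limma or of the tool named. They were Chad (0.076), Hapln1 (0.0936) and Ucma (0.0632) with a fit without the mean-variance trend, Chad (0.0654), Hapln1 (0.229), Matn4 (0.171), Nkx3-2 (0.0632) and Ucma (0.0943) with centring on the library median, Chad (0.0953) and Ucma (0.085) with a pseudocount of 0.1, Chad (0.248), Cytl1 (0.178), Matn4 (0.0747), Nkx3-2 (0.126) and Ucma (0.138) with DESeq2. Others were Hapln1 (0.0511), Matn4 (0.0857) and Ucma (0.0934) with only the compared populations, Matn4 (0.311) and Ucma (0.146) with quantile normalization, Matn4 (0.0652) with a pseudocount of 10, Matn4 (0.0777) and Ucma (0.0564) with voom and Ucma (0.0851) with edgeR. Comp, called higher as well, is in both the cartilage and the tendon list.

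General fibroblast genes and the collagens of fibrous tissue were higher throughout, in lists also chosen with earlier results of these data known. All 32 fibroblast genes in the table (of 33) and all 18 fibrillar and associated collagens were called higher in GFP- Pdgfra+ cells, also with centring and quantile normalization, where 32.9% of all genes were called higher with the scaling of the table. They had median log2 fold changes of 5.31 and 5.24 against 0.17 for all genes, and the same medians with members at the floor at their bound. The summed value of the fibroblast list was 8812 and 8156 in GFP- Pdgfra+ and 133 and 167 in GFP- Pdgfra- libraries, with the highest value from decorin (Dcn) in all 4. Decorin, a small proteoglycan that binds collagen fibrils, was 1578 and 1375 in GFP- Pdgfra+ and 21.1 and 25.8 in GFP- Pdgfra- cells (log2 fold change 5.92, limma adjusted p = 1.01e-10). Col14a1, a collagen on the surface of fibrils, was 938 and 969.6 in GFP- Pdgfra+ and 8.76 and 17.6 in GFP- Pdgfra- cells (log2 fold change 6.15, limma adjusted p = 1.02e-09), and Prrx1, a homeobox factor of limb mesenchyme, was 513 and 458 in GFP- Pdgfra+ and 9.91 and 13.8 in GFP- Pdgfra- cells (log2 fold change 5.26, limma adjusted p = 1.97e-10). Collagen I itself, Col1a1, stood at 16841 and 15352 in GFP- Pdgfra+ and 435 and 560.2 in GFP- Pdgfra- cells (log2 fold change 5.02, limma adjusted p = 3.83e-10). No library of one population reached the other in these 4 genes.

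Of the 16 small leucine-rich proteoglycans, which regulate the assembly of collagen fibrils, 13 were called higher and none lower, against 32.9% and 26.8% of all genes. Their median log2 fold change was 3.96. With centring on the library median 10 and 1 were called higher and lower, and with quantile normalization 11 and 1. Asporin (Aspn), which binds collagen and TGF-beta, had the largest change, with 1803 and 1643 in GFP- Pdgfra+ and 14.8 and 18.5 in GFP- Pdgfra- cells (log2 fold change 6.62, limma adjusted p = 3.52e-11). Osteoglycin (Ogn) was 929.7 and 935 in GFP- Pdgfra+ and 14.8 and 18.5 in GFP- Pdgfra- cells (log2 fold change 5.73, limma adjusted p = 2.34e-10), and Prelp, an anchor between matrix and basement membranes, was 893 and 1008 in GFP- Pdgfra+ and 18.0 and 27.7 in GFP- Pdgfra- cells (log2 fold change 5.35, limma adjusted p = 1.08e-09). Biglycan (Bgn) had the highest value of this list in all 4 libraries, at 3725 and 3533 in GFP- Pdgfra+ and 66.2 and 106 in GFP- Pdgfra- cells (log2 fold change 5.42, limma adjusted p = 1.97e-10). In all 4 genes the GFP- Pdgfra+ libraries lay far above the GFP- Pdgfra- libraries. The 3 members not called, Epyc, Nyx and Optc, had low values in every GFP- library.

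The other matrix groups behaved alike against GFP- Pdgfra- cells. Of 22 genes of elastic fibres and collagen crosslinking 21 were called higher (median log2 fold change 4.68), of 23 matricellular genes 22 (median 4.21), and 23 of 25 measured matrix proteases and their inhibitors (median 4.21), with none called lower except 1 protease gene with centring. Of all genes 32.9% were called higher and 26.8% lower. These medians did not change with members at the floor at their bound. Fibrillin 1 (Fbn1), the backbone of microfibrils, was 2906 and 2676 in GFP- Pdgfra+ and 22.0 and 56.0 in GFP- Pdgfra- cells (log2 fold change 6.27, limma adjusted p = 3.90e-09), and the crosslinking enzyme gene Lox was 744 and 760.2 in GFP- Pdgfra+ and 20.2 and 9.08 in GFP- Pdgfra- cells (log2 fold change 5.68, limma adjusted p = 4.06e-09). Fibronectin (Fn1) was 4332 and 4112 in GFP- Pdgfra+ and 202 and 302 in GFP- Pdgfra- cells (log2 fold change 4.09, limma adjusted p = 1.15e-09). Among the proteases, the gelatinase Mmp2 was 674 and 665 in GFP- Pdgfra+ and 15.9 and 18.7 in GFP- Pdgfra- cells (log2 fold change 5.2, limma adjusted p = 6.85e-11), and its inhibitor Timp2 was 1055 and 877 in GFP- Pdgfra+ and 21.4 and 33.8 in GFP- Pdgfra- cells (log2 fold change 5.11, limma adjusted p = 4.78e-10). Enzymes that degrade matrix and their inhibitors were thus both higher, with no overlap of libraries in these genes.

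Signalling genes followed by family. Of the 7 PDGF family genes 6 were called higher (median log2 fold change 2.64), Pdgfra among them by the sort, and of all genes 32.9% were called higher and 26.8% lower. Without Pdgfra, 5 of 6 were called higher (median 2.51). The sister receptor gene Pdgfrb was 126 and 124 in GFP- Pdgfra+ and 7.04 and 9.08 in GFP- Pdgfra- cells (log2 fold change 3.81, limma adjusted p = 7.62e-09), and the ligand gene Pdgfc was 20.5 and 18.6 in GFP- Pdgfra+ and 1.58 and 3.18 in GFP- Pdgfra- cells (log2 fold change 2.64, limma adjusted p = 4.29e-06). Both were fully separated between the populations. Of 32 Wnt pathway modulators 25 were called higher (median 2.88, or 2.98 with members at the floor at their bound) and none lower. Besides Sfrp1, the secreted antagonists Sfrp2 and Dkk3 were 135 and 55.4 and 349 and 303 in GFP- Pdgfra+ cells against 1.29 and 0.354 and 3.88 and 9.08 in GFP- Pdgfra- cells (log2 fold changes 5.63 and 5.54). The ligand gene Wnt5a was 129.7 and 107 in GFP- Pdgfra+ and 2.73 and 2.71 in GFP- Pdgfra- cells (log2 fold change 5.0, limma adjusted p = 3.02e-09). Antagonists and a ligand of the pathway were therefore higher side by side. Calls higher and lower in the Wnt list were 21 and 0 with centring and 22 and 1 with quantile normalization, and in the PDGF list 6 and 0 and 6 and 1.

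Of all genes 32.9% were called higher and 26.8% lower. In the BMP and TGF-beta pathway 32 of 35 genes in the table were called higher and 1 lower, which was Tgfb1 (median 2.88, or 3.12 with members at their bound). Tgfb1 falls outside the rule for named genes and was chosen after its values were seen. It was 11.0 and 10.5 in GFP- Pdgfra+ and 46.1 and 50.3 in GFP- Pdgfra- cells (log2 fold change -2.06, limma adjusted p = 8.11e-05). The ligand gene Tgfb3, which acts in tendon development, was instead higher, at 259 and 248 in GFP- Pdgfra+ and 0.718 and 6.72 in GFP- Pdgfra- cells (log2 fold change 6.13, limma adjusted p = 3.07e-07), as was the receptor gene Tgfbr2, at 305 and 282 in GFP- Pdgfra+ and 16.5 and 14.5 in GFP- Pdgfra- cells (log2 fold change 4.16, limma adjusted p = 7.27e-10). The ligands thus differed in direction, with no overlap of libraries in either. All 11 genes of the IGF system in the table were called higher (median 4.93, or 5.05 with members at their bound). With centring and quantile normalization the calls higher and lower were 28 and 1 and then 27 and 1 for the BMP list and did not move for the IGF list. Igf2 was 13853 and 12997 in GFP- Pdgfra+ and 245 and 438 in GFP- Pdgfra- cells (log2 fold change 5.35, limma adjusted p = 8.58e-10), and the binding protein gene Igfbp5 was 4513 and 3549 in GFP- Pdgfra+ and 43.5 and 60.3 in GFP- Pdgfra- cells (log2 fold change 6.26, limma adjusted p = 7.65e-11).

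Of 12 measured Hedgehog pathway genes 10 were called higher (median 4.43), where 32.9% of all genes were called higher and 26.8% lower. The largest change was in the co-receptor gene Cdon, at 683 and 608 in GFP- Pdgfra+ and 7.32 and 7.19 in GFP- Pdgfra- cells (log2 fold change 6.29, limma adjusted p = 3.39e-11). The receptor gene Ptch1, which the pathway itself induces, was 157 and 158 in GFP- Pdgfra+ and 112 and 100.3 in GFP- Pdgfra- cells, a change of 0.57. Centring on the library median lowered the change to 0.12 and ended the call (limma adjusted p = 0.555). The call was also lost in a fit without the mean-variance trend (limma adjusted p = 0.067), where the change was still 0.57. Without replicate 2 of GFP- Pdgfra+ cells the call was lost too, and the change was again 0.57. The adjusted p of Ptch1 ranged from 0.00387 to 0.555 over all alternatives. Of 16 FGF pathway genes 14 were called higher (median 2.49, or 2.44 with members at their bound), among them the receptor gene Fgfr1, at 383 and 373 in GFP- Pdgfra+ and 7.32 and 9.79 in GFP- Pdgfra- cells (log2 fold change 5.32, limma adjusted p = 8.90e-11). With centring the calls higher and lower in the FGF list were 13 and 1, and with quantile normalization 11 and 1. Of 38 limb patterning factors in the table (42 in the list) 34 were called higher and none lower, with a median of 3.12 or 3.18 with the 22 members at the floor in a population at their bound. Tbx15, a T-box factor of limb mesenchyme and skeleton, was 161 and 132 in GFP- Pdgfra+ and 1.01 and 2.24 in GFP- Pdgfra- cells (log2 fold change 5.85, limma adjusted p = 1.37e-09), with separate libraries.

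Genes of bone and of the stem cell niche were higher too, where 32.9% of all genes were called higher and 26.8% lower. Of 17 osteoblast genes 15 were called higher and none lower, with a median log2 fold change of 1.45 (1.79 with members at their bound), and their summed value was 567 and 411 in GFP- Pdgfra+ and 135 and 131 in GFP- Pdgfra- libraries. With centring 11 and with quantile normalization 11 of the 17 were called higher, and none lower. Osteopontin (Spp1) was 287 and 174 in GFP- Pdgfra+ and 85.4 and 77.5 in GFP- Pdgfra- cells (log2 fold change 1.45, limma adjusted p = 1.90e-04), and Runx2, the osteoblast regulator, was 73.5 and 69.1 in GFP- Pdgfra+ and 9.05 and 9.31 in GFP- Pdgfra- cells (log2 fold change 2.83, limma adjusted p = 6.20e-07). Of 11 niche genes 10 were called higher and Il7 was not called (median 3.36). Cxcl12, the chemokine that retains hematopoietic stem cells, was 170.1 and 136 in GFP- Pdgfra+ and 9.33 and 17.1 in GFP- Pdgfra- cells (log2 fold change 3.49, limma adjusted p = 7.56e-08). Kitl, the stem cell factor gene, was 24.6 and 28.1 in GFP- Pdgfra+ and 4.16 and 4.13 in GFP- Pdgfra- cells (log2 fold change 2.41, limma adjusted p = 1.19e-05), and Csf1, the macrophage growth factor gene, was 137 and 108 in GFP- Pdgfra+ and 2.44 and 5.31 in GFP- Pdgfra- cells (log2 fold change 4.72, limma adjusted p = 3.39e-08). Each of these niche genes was low in both GFP- Pdgfra- libraries.

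Of 14 adipogenic genes 8 were called higher and 3 lower (median 1.79), against 32.9% and 26.8% of all genes. With centring the calls were 8 and 4, and with quantile normalization 7 and 4. Its summed value was 2287 and 2402 in GFP- Pdgfra+ and 157 and 218 in GFP- Pdgfra- libraries. In GFP- Pdgfra+ cells most of it came from Dlk1, a marker of preadipocytes and of fetal mesenchyme, which was 1567 and 1619 in GFP- Pdgfra+ and 9.62 and 30.8 in GFP- Pdgfra- cells (log2 fold change 6.44, limma adjusted p = 1.23e-08). Zfp423, a preadipocyte factor, was 119 and 114 in GFP- Pdgfra+ and 0.718 and 1.53 in GFP- Pdgfra- cells (log2 fold change 5.82, limma adjusted p = 2.83e-09), whereas the fatty acid transporter gene Cd36, found also on blood and endothelial cells, was lower, at 14.0 and 15 in GFP- Pdgfra+ and 65.3 and 111 in GFP- Pdgfra- cells (log2 fold change -2.48, limma adjusted p = 2.46e-05). The libraries did not overlap in these 3 genes. Of 21 mesenchymal surface antigens 19 were called higher and none lower (median 3.23, 18 and 1 called higher and lower with centring). Pdgfra, which the sort used, is a member, and without it 18 of 20 were called higher (median 2.96). Cd44, the hyaluronan receptor, was 599 and 545 in GFP- Pdgfra+ and 210.1 and 169 in GFP- Pdgfra- cells (log2 fold change 1.59, limma adjusted p = 4.99e-07). Of 14 measured complement and innate genes 12 were called higher and 1 lower (median 2.93). C1s, a protease of the first complement component, was 193 and 210.4 in GFP- Pdgfra+ and 3.59 and 4.83 in GFP- Pdgfra- cells (log2 fold change 5.29, limma adjusted p = 5.71e-10).

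**Figure D3:**
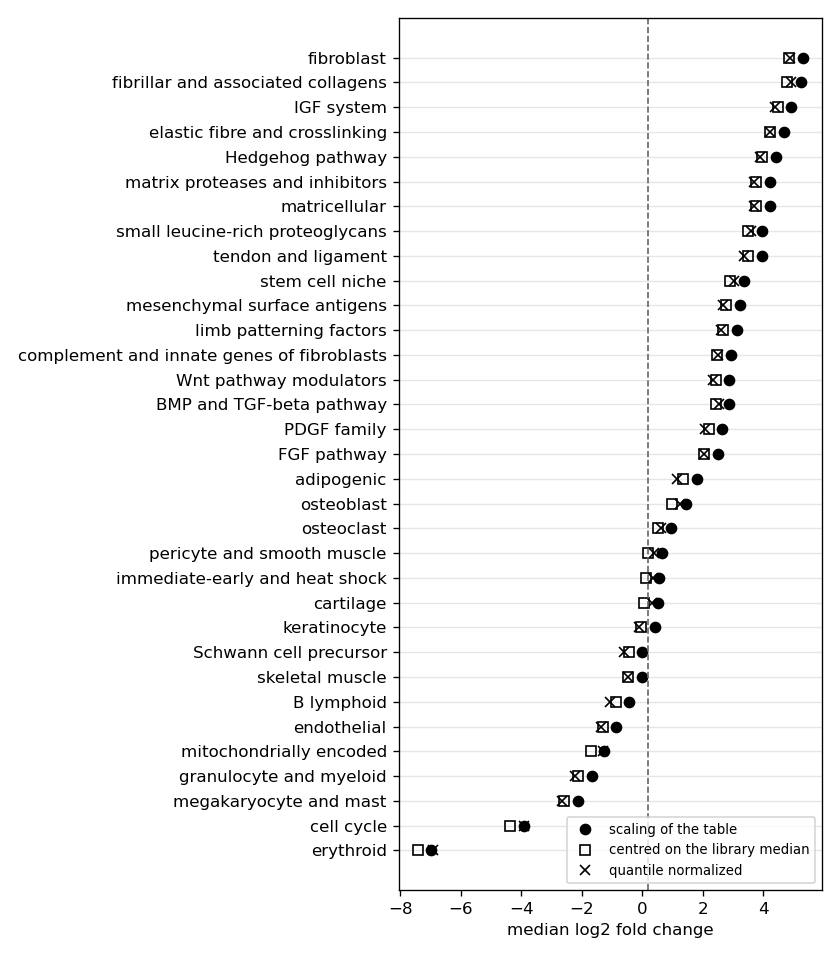
Median log2 fold change (horizontal axis, GFP- Pdgfra+ over GFP- Pdgfra- cells) of each gene list under the scaling of the table (filled circles), centring on the library median (open squares) and quantile normalization (crosses), with a dashed line at the median of all genes, 0.17. Under the scaling of the table the fibroblast list lies highest at 5.31 and the erythroid list lowest at -6.98. With quantile normalization the collagen list (4.93) lies above the fibroblast list (4.90). The Schwann cell precursor and keratinocyte lists turn negative with centring and quantile normalization.

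Genes lower in GFP- Pdgfra+ cells were led by red cell genes. All 27 erythroid genes in the table were called lower, where 26.8% of all genes were, with a median log2 fold change of -6.98, or -7.06 with members at the floor at their bound. The 10 largest decreases of all genes were Hbb-b2, Hba-a2, Slc4a1, Hbb-b1, Ermap, Ctse, Car2, Spna1, Rhag and Kel, all known from red cells or their precursors. The anion exchanger gene Slc4a1 (band 3) was 5.42 and 5.49 in GFP- Pdgfra+ and 2407 and 2989.8 in GFP- Pdgfra- cells (log2 fold change -8.70, standard error 0.29, limma adjusted p = 2.39e-10), and the Rh-associated glycoprotein gene Rhag was 0.378 and 2.82 in GFP- Pdgfra+ and 589 and 469 in GFP- Pdgfra- cells (log2 fold change -7.84, limma adjusted p = 1.64e-08). The blood group gene Kel was at the floor in GFP- Pdgfra+ cells and 243 and 262 in GFP- Pdgfra- cells, at least 243-fold lower (limma adjusted p = 2.73e-09). Hbb-b1 had a log2 fold change of -8.43 (limma adjusted p = 2.35e-10). The globin genes Hbb-b1 and Hbb-b2, like Hba-a1 and Hba-a2, are near-identical copies whose reads can be split, so their single values are uncertain while their direction is shared. Of the other blood lists, 12 of 19 myeloid genes were called lower and none higher (median -1.68, -1.89 at the bounds), 5 of 7 megakaryocyte and mast cell genes lower and 1 higher (median -2.13, -2.19), and of 4 B lymphoid genes only Cd24a (median -0.43, -0.68).

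Genes of dividing cells were lower with them. Of 32 cell cycle genes 28 were called lower and 4 higher in GFP- Pdgfra+ cells, against 26.8% and 32.9% of all genes, and the median log2 fold change was -3.91. The proliferation marker Mki67 was 130.5 and 106 in GFP- Pdgfra+ and 5385 and 6467 in GFP- Pdgfra- cells (log2 fold change -5.64, limma adjusted p = 6.85e-11), the topoisomerase gene Top2a was 49.5 and 36.4 in GFP- Pdgfra+ and 1109 and 996 in GFP- Pdgfra- cells (log2 fold change -4.60, limma adjusted p = 4.97e-09), and Pcna, the sliding clamp of DNA replication, was 45.0 and 34.9 in GFP- Pdgfra+ and 570.0 and 659 in GFP- Pdgfra- cells (log2 fold change -3.92, limma adjusted p = 1.22e-09). The GFP- Pdgfra- libraries were above the GFP- Pdgfra+ libraries throughout. The 4 members called higher were Cdkn1a, Cdkn1c, Ccnd1 and Ccnd2, inhibitors of the cycle and D-type cyclins that growth factors induce, named because they are the exceptions and so chosen after their values were seen. Cdkn1c, an imprinted inhibitor, was 481 and 479 in GFP- Pdgfra+ and 19.7 and 26.5 in GFP- Pdgfra- cells (log2 fold change 4.33, limma adjusted p = 3.83e-10). How far the cell cycle genes belong to the erythroid cells was not tested.

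Transcripts that report on RNA composition and on cell handling differed as well. The share of reads on the mitochondrial ribosomal RNA mt-Rnr2 was 10.8% and 10.8% in GFP- Pdgfra+ and 27.2% and 29.1% in GFP- Pdgfra- libraries. Of 15 mitochondrially encoded genes 14 were called lower in GFP- Pdgfra+ cells (median -1.25), mt-Co1 for example at 6307 and 6271 in GFP- Pdgfra+ and 17142 and 17223 in GFP- Pdgfra- cells (log2 fold change -1.45, limma adjusted p = 1.17e-06). Without these genes and with the rest rescaled, 9485 genes were called in place of 9476. Of 22 immediate-early and heat shock genes, which collagenase digestion and sorting can induce, 11 were called higher and 8 lower (median 0.56). Of all genes 32.9% and 26.8% were. With centring on the library median 8 and 10 were called higher and lower, and with quantile normalization 9 and 9. Egr1 was 809 and 478 in GFP- Pdgfra+ and 177 and 249 in GFP- Pdgfra- cells (log2 fold change 1.56, limma adjusted p = 5.96e-05), while the chaperone gene Hspa8 was lower, at 1527 and 1447 in GFP- Pdgfra+ and 3440.2 and 3492 in GFP- Pdgfra- cells (log2 fold change -1.22, limma adjusted p = 3.05e-06). Their part in the other differences was not tested.

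The Pdgfra difference among GFP- cells was then set against that among GFP+ cells. In limma 7031 genes (44.3%) were called for the interaction, 3999 with a larger (25.2% of all genes) and 3032 with a smaller (19.1%) log2 fold change among GFP- cells. With centring the split was 2989 and 4427, and the median of all genes moved from 0.16 to -0.27, or to -0.10 with quantile normalization. The largest positive interactions were in genes that GFP+ Pdgfra- cells express. Doublecortin (Dcx), a microtubule protein of migrating neurons, had values of 20.0 and 35.5 in GFP- Pdgfra+, 4.56 and 10.5 in GFP+ Pdgfra+, 149 and 142 in GFP+ Pdgfra- and 0.718 and 1.30 in GFP- Pdgfra- cells (interaction 8.0, limma adjusted p = 3.24e-07). Myostatin (Mstn), a negative regulator of muscle growth, was 16.3 and 10.8 in GFP- Pdgfra+, 1.52 and 2.16 in GFP+ Pdgfra+, 41.9 and 44.4 in GFP+ Pdgfra- and 0.144 and 0.118 in GFP- Pdgfra- cells (interaction of at least 6.80 with GFP- Pdgfra- cells, which are at the floor, set to 3 reads, limma adjusted p = 3.55e-07). In both genes Pdgfra+ cells were higher than Pdgfra- cells without GFP and lower with it. Chodl (chondrolectin), Col6a6 and Zcchc5 followed, with interactions of 7.33, 6.97 and 6.94. The largest negative ones were Hba-a2, Mylk3, Slc4a1, Hbb-b2 and Cd24a, between -7.71 and -7.42, genes that were highest in GFP- Pdgfra- cells, such as Mylk3 (a myosin light chain kinase) with 0.378 and 0.446 in GFP- Pdgfra+, 6.77 and 1.29 in GFP+ Pdgfra+, 0.850 and 0.386 in GFP+ Pdgfra- and 106 and 114 in GFP- Pdgfra- cells. Interactions are ranked on log2(value + 1), and for Mylk3, at the floor in GFP- Pdgfra+ and GFP+ Pdgfra- cells, the value is at most -6.91 with these set to 3 reads.

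For the lists this second contrast gives another order. Of 15 tendon genes 9 were called with a positive and none with a negative interaction (median 1.72, all genes 0.16). Of all genes 25.2% were positive and 19.1% negative. With centring the calls were 8 and 2, with quantile normalization 8 and 2, and without mitochondrial genes 9 and 1. Thbs4 and Cilp, as examples of members not called, were high with Pdgfra in GFP+ cells too, at 473 and 509 and 158 and 242 in GFP+ Pdgfra+ against 7.41 and 6.30 and 1.09 and 2.19 in GFP+ Pdgfra- cells. Of 24 cartilage genes 3 were called positive and 10 negative (median -0.64), and of 17 osteoblast genes none was positive and 10 were negative (median -1.20, 0 and 14 with centring and 0 and 14 with quantile normalization). Skeletal muscle, pericyte and Schwann cell precursor genes had 18 of 22, 14 of 15 and 11 of 17 positive interactions, with negative ones in 2 Schwann cell precursor genes and in none of the others. These are lineages whose transcripts are high in GFP+ Pdgfra- cells, with summed values of 3180.4 and 2919, 2775 and 3616 and 685 and 618 in their libraries.

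Against GFP+ Pdgfra+ cells the GFP- Pdgfra+ fraction differed in fewer genes. In limma 849 genes (5.35%) were called, 338 higher (2.13%) and 511 lower (3.22%) in GFP- Pdgfra+ cells. This count depends on single libraries. It was 306 (73 higher, 233 lower) and 246 (77 higher, 169 lower) without replicate 1 or 2 of GFP- Pdgfra+ cells. Without replicate 1 or 2 of GFP+ Pdgfra+ cells it was 350 (123 higher, 227 lower) and 517 (164 higher, 353 lower). In the tendon list, chosen with earlier results known, 10 of 15 were called higher and 2 lower (median 2.19, all genes 0.00). These calls were 12 and 2 with centring, 11 and 2 with quantile normalization and 9 and 2 without mitochondrial genes. Thbs4 was 2265 and 2229 in GFP- Pdgfra+ and 473 and 509 in GFP+ Pdgfra+ libraries (log2 fold change 2.19, limma adjusted p = 4.68e-06), and Fmod was 1019 and 1168 against 140.4 and 113 (log2 fold change 3.1, limma adjusted p = 6.88e-05). Comp was 68.5 and 89.5 against 8.42 and 7.62 (log2 fold change 3.14, limma adjusted p = 1.81e-04), and Scx was 7.94 and 10.8 while GFP+ Pdgfra+ cells were at the floor, at least 9.33-fold higher (limma adjusted p = 0.00196). For Tnmd and Kera the values were 407 and 360.1 and 113 and 99.0 in GFP- Pdgfra+ against 21.4 and 28.3 and 9.25 and 4.17 in GFP+ Pdgfra+ libraries, with log2 fold changes of 3.90 and 3.88. In none of these genes did the libraries overlap.

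Of 24 cartilage genes 8 were called higher and 3 lower than in GFP+ Pdgfra+ cells (median 0.92, or 0.85 with members at their bound). Of all genes 2.13% were called higher and 3.22% lower. The summed value of the list overlapped, at 1829 and 3748 in GFP- Pdgfra+ and 3240 and 2517 in GFP+ Pdgfra+ libraries. Most of the sum in GFP+ Pdgfra+ libraries came from Col11a1, at 2447 and 1718. It was 854 in replicate 1 of GFP- Pdgfra+ cells and under the 1498 of Col2a1 in replicate 2. Of the genes called higher, Acan was 189 and 245 against 60.1 and 56.8 (log2 fold change 1.87, limma adjusted p = 6.45e-04), and Lect1 14.0 and 41.4 against 0.414 and 2.16 (log2 fold change 3.58, limma adjusted p = 0.00245). Matrix genes that were also higher included Nov, at 353 and 311 against 89.1 and 95.3 (log2 fold change 1.83, limma adjusted p = 2.76e-04), Prelp, at 893 and 1008 against 227 and 293 (log2 fold change 1.88, limma adjusted p = 3.68e-04), and the protease Pappa2, which cleaves IGF binding proteins, at 119 and 94.9 against 8.42 and 9.06 (log2 fold change 3.46, limma adjusted p = 2.00e-04). All of them had separate libraries. The fibroblast list had 7 of 32 called higher and 1 lower (median 0.53) and the collagens 6 and 4 of 18 (median 0.64), or 2 and 4 with quantile normalization. Collagen I itself was lower in GFP- Pdgfra+ cells (Col1a1 16841 and 15352 against 51185 and 38311, log2 fold change -1.46, limma adjusted p = 5.69e-04). Not called were 18 of 22 elastic fibre, 12 of 23 matricellular and 19 of 25 protease genes (medians 0.42, 0.23 and -0.10). Nor were 23 of 32 Wnt, 28 of 35 BMP, 9 of 11 IGF, 8 of 12 Hedgehog and 14 of 16 FGF genes. No adipogenic gene was called, and 10 of 14 complement genes were not. Of all genes 5.35% were called. On the lower side, 15 of 17 osteoblast genes were called lower and none higher (median -3.48), also with centring and quantile normalization. Further lists with lower and no higher calls include cell cycle (8 of 32, median -0.56), immediate-early and heat shock (7 of 22, median -0.90), Schwann cell precursor (6 of 17, median -1.09), skeletal muscle (5 of 22, median -0.72) and niche genes (4 of 11, median -0.94, with 1 higher under either scaling). Spp1 was 287 and 174 against 6048 and 3915 (log2 fold change -4.44, limma adjusted p = 1.34e-06). The comparison shares the GFP- Pdgfra+ libraries with the one above, so the 2 are not independent.

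Against GFP+ Pdgfra- cells 4427 genes (27.9%) were called in limma, 2277 higher (14.3% of all genes) and 2150 lower (13.5%) in GFP- Pdgfra+ cells. The count was 2757 (1478 higher, 1279 lower) and 3077 (1657 higher, 1420 lower) without replicate 1 or 2 of GFP+ Pdgfra- cells. Without replicate 1 or 2 of GFP- Pdgfra+ cells it was 2995 (1498 higher, 1497 lower) and 2874 (1531 higher, 1343 lower). All 32 fibroblast genes and 13 of 15 tendon genes were higher in GFP- Pdgfra+ cells (medians 2.93 and 4.40, all genes -0.03), and Egr2 was the tendon gene that was lower. Thbs4 was 2265 and 2229 against 7.41 and 6.30 (log2 fold change 8.16, limma adjusted p = 9.19e-12), and Mfap5 was 447 and 418 against 1.58 and 2.19 (log2 fold change 7.24, limma adjusted p = 7.07e-09). On the other side, 18 of 22 skeletal muscle genes, 12 of 17 Schwann cell precursor genes, 11 of 15 pericyte genes, 27 of 32 cell cycle genes, 16 of 22 immediate-early and heat shock genes and 11 of 27 erythroid genes were lower. Rgs5, a regulator of G protein signalling typical of pericytes, was 35.2 and 48.3 against 731 and 1035 (log2 fold change -4.37, limma adjusted p = 2.81e-07), and Ttn was 17.8 and 30.1 against 914 and 818 (log2 fold change -5.16, limma adjusted p = 4.99e-08). Of the 15 tendon genes 13 had their highest mean of the 4 populations in GFP- Pdgfra+ cells, such as Tnmd (407 and 360.1 in GFP- Pdgfra+, 21.4 and 28.3 in GFP+ Pdgfra+, 5.95 and 4.76 in GFP+ Pdgfra- and 18.0 and 19.9 in GFP- Pdgfra- cells). The other 2 were Tnc, highest in GFP+ Pdgfra+ cells (589 and 533 in GFP- Pdgfra+, 1145 and 822 in GFP+ Pdgfra+, 586 and 624 in GFP+ Pdgfra- and 28.9 and 29.8 in GFP- Pdgfra- cells), and Egr2, highest in GFP+ Pdgfra- cells (15.8 and 16.2 in GFP- Pdgfra+, 89.6 and 53.3 in GFP+ Pdgfra+, 95.5 and 142 in GFP+ Pdgfra- and 6.75 and 8.61 in GFP- Pdgfra- cells). No share of all genes is given beside the count of 13 tendon genes, so that count describes the list alone. Col1a1 and Spp1 were highest in GFP+ Pdgfra+ cells.

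Some of the genes named share exons with another annotated gene, and since the counting is not stated to use strand, their reads cannot be told apart. On the same strand these are C1s (Gm5077), Fgfr1 (a second identifier of the symbol), H19 (Mir675), Hspa8 (Snord14c, Snord14d, Snord14e), Ramp2 (Vps25), Runx2 (a second identifier of the symbol) and Top2a (SNORA32). On the opposite strand they are C1s (Gm16567), Ccnd1 (Oraov1), Col10a1 (Nt5dc1), Col1a1 (Gm17329), Col9a3 (Tcfl5), Egr1 (Gm17507), Epyc (Gm10754), Fbn1 (Gm9913), Fgfr1 (Gm16159), Fn1 (Apol7d), Gas7 (Glp2r), Igf2 (Igf2as), Il7 (Gm16685), Kctd12 (Gm17446), Malat1 (Gm20417), Matn4 (Rbpjl), Pdgfc (Gm16000), Prelp (Gm15851), Runx2 (Gm10497), Sfrp2 (Gm16790), Sox5 (4933415D12Rik), Tnc (8030451A03Rik), Tnxb (Cyp21a2-ps), Ttn (Gm13938), Wnt5a (Gm2670) and mt-Co1 (mt-Ts1).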

How the data were processed

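Normalized signal values were used as deposited by the authors, who trimmed reads with cutadapt, counted them per gene with RSEM 1.17 against NCBIM37 and normalized them with limma. All values (100%, tolerance 0.1) returned whole reads as (reads + 0.5) per 1000000 of an effective library, with normalization factors of 0.800 to 1.13. The limma fit (limma 3.58.1 in R 4.3.3) had 1 coefficient per population, 4 residual degrees of freedom and a mean-variance trend. On simulated reads it was run with far fewer changed genes than were called here, which checks the code and not these calls. Voom, edgeR 4.0.16 and DESeq2 1.42.0 were run on the recovered reads, and tables were made with Python 3.11.15. Other alternatives changed the libraries in the fit, the trend, the weights, the scaling, the filter and the pseudocount, or left out a library.

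The depth of 3221217 to 5302762 reads sets the floor at 3 reads. Replicates varied more than counting alone, with a chi-square per degree of freedom of 8.36 in GFP- Pdgfra-, 4.12 in GFP- Pdgfra+, 4.98 in GFP+ Pdgfra- and 9.12 in GFP+ Pdgfra+ cells. The paper states that independent sets came from pooled littermates, so replicate numbers pair the libraries, and deviations of libraries with the same number had correlations of 0.00433 to 0.0812. Between GFP- Pdgfra+ and GFP- Pdgfra- cells voom called 9495 genes, edgeR 9281 and DESeq2 8178.

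Named are the sort markers, the 15 largest increases and 10 largest decreases without overlap of libraries, the 10 highest genes called higher, the 5 members of highest mean in each list, any tendon, cartilage, small proteoglycan or niche gene, and the 5 largest differences each way for the interaction and against GFP+ Pdgfra+ cells. Some genes that meet this are not reported. Members, lists and tests were chosen with earlier results of these data known. Of 15880 genes 15849 were matched to the annotation. Where 1 of the 74 repeated symbols is named, the identifier with the higher mean is given.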

Additional observations from a re-analysis of the deposited data

Results flagged for a closer look

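The difference between Pdgfra+ and Pdgfra- cells was tested for being unequal in GFP- and GFP+ cells, by the interaction term in limma, and 7031 genes passed an adjusted p of at most 0.05. Of the 115 genes given with a test or fold change above, 95 were among them, 75 with a positive and 20 with a negative interaction (log2 fold change among GFP- cells minus that among GFP+ cells). Of all genes 44.3% were called, 25.2% positive and 19.1% negative. Many of the 115 were chosen for a large change among GFP- cells, which is 1 term of the interaction, or for a large interaction, so this share is set largely by the choice.

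The most positive values were Dcx 8.0, Mstn 7.63, Chodl 7.33, Col6a6 6.97, Zcchc5 6.94, Dlk1 6.30, Gas7 6.26, Agtr2 6.19, Cdon 6.01, Tgfb3 5.83, Tbx15 5.72, Cdkn1c 5.63 and Dpt 5.55. Below these came Peg3 5.42, Fgfr1 5.31, Vcan 5.2, Fbn1 5.17, Sfrp2 5.14, Tnxb 4.53, Igf2 4.51, Igfbp5 4.47, Nov 4.36, Timp2 4.12, Rgs5 4.11, Scx 4.05 and Col3a1 4.0. Values of intermediate size were Sfrp1 3.94, Ogn 3.92, Prrx1 3.88, Igf1 3.86, Nes 3.76, Egr1 3.57, Abca9 3.54, Tnc 3.53, Postn 3.52, Pdgfrb 3.5, Anpep 3.38, Cspg4 3.35 and Prelp 3.29. Smaller positive values were Cilp2 3.1, Sox5 3.06, Angptl1 3.02, Ptx4 2.97, Aspn 2.95, Mmp2 2.91, Csf1 2.85, Tgfbr2 2.80, Pdgfc 2.68, Zfp423 2.67, Cdkn1a 2.63, Matn4 2.60 and Ttn 2.57. Smaller again were Col12a1 2.51, Bgn 2.46, Dkk3 2.42, Ccnd1 2.40, Sox9 2.38, Kctd1 2.37, Thbs2 2.26, Tnmd 2.25, C1s 2.19, Wnt5a 2.18, Pappa2 2.17, Pdgfra 1.75 and Col14a1 1.73. The least positive were Egr2 1.72, Malat1 1.56, Lox 1.51, Ccnd2 1.48, Ly6a 1.40, Fn1 1.34, Col1a2 1.28, Fmod 1.13, Col1a1 1.05 and Cd44 0.91.

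Among the 95 genes, the most negative values were Hba-a2 -7.71, Slc4a1 -7.53, Cd24a -7.42, Hbb-b1 -7.03, Rhag -7.03, Kel -6.73 and Mki67 -4.71. Mylk3 (-7.69, at most -6.91 with populations at the floor set to 3 reads) and Hbb-b2, named above, are not among the 95. Less negative were Tgfb1 -4.69, Runx3 -4.48, Top2a -3.87, Pcna -3.22, Col2a1 -2.86, Matn1 -2.21 and Col10a1 -2.07. The least negative were Spp1 -2.01, Sox6 -1.97, Hapln1 -1.46, Col11a1 -0.94, mt-Co1 -0.83 and Hspa8 -0.55.

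Values are on log2(value + 1), and genes with a population at the floor have no exact interaction. With such populations set to 3 reads it is at least 6.80 for Mstn and 3.40 for Scx and at most 1.52 for Ly6a and 2.42 for Pappa2. For Cilp2, Kel, Matn1 and Ptx4 the populations at the floor leave no bound, so their size and order are not determined.

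Of these 95 genes, 13 lost the call of the interaction under at least 1 alternative with a test, and none changed direction there. The highest adjusted p, in limma or in the tool of the alternative, was 0.0569 for Cd44, 0.33 for Cilp2, 0.0757 for Col10a1, 0.0912 for Col11a1, 0.214 for Col2a1, 0.152 for Fmod, 0.357 for Hapln1, 0.151 for Hspa8, 0.591 for Ly6a, 1 for Matn1, 0.088 for mt-Co1, 0.422 for Pappa2 and 0.318 for Ptx4. For 7 of them the call was lost without a single library, with the adjusted p in limma given in brackets. Without GFP+ Pdgfra+ replicate 1 these were Col11a1 (0.071), Col2a1 (0.0573) and Hspa8 (0.0682). The omission of GFP+ Pdgfra+ replicate 2 did so for Col2a1 (0.119), Fmod (0.111), Hapln1 (0.159) and Ly6a (0.113). Without GFP+ Pdgfra- replicate 1 these were Col10a1 (0.0757), Col2a1 (0.186), Fmod (0.0611), Hapln1 (0.0874), Hspa8 (0.0938) and Ly6a (0.0812). The omission of GFP+ Pdgfra- replicate 2 did so for Col11a1 (0.0802), Fmod (0.122), Hapln1 (0.117) and Ly6a (0.0538). Without GFP- Pdgfra+ replicate 1 these were Col11a1 (0.0747), Col2a1 (0.16), Fmod (0.0689), Hapln1 (0.181), Hspa8 (0.0517) and Ly6a (0.16). The omission of GFP- Pdgfra+ replicate 2 did so for Fmod (0.121) and Hspa8 (0.0845). Without GFP- Pdgfra- replicate 1 these were Fmod (0.0719), Hapln1 (0.0529) and Ly6a (0.0889). The omission of GFP- Pdgfra- replicate 2 did so for Col2a1 (0.104) and Hapln1 (0.0877).

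Positive values include genes that GFP+ Pdgfra- cells express, and negative ones the red cell and cell cycle genes of GFP- Pdgfra- cells.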

How the results depend on the processing

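Leaving out each library in turn gave 8153 to 9735 called genes between GFP- Pdgfra+ and GFP- Pdgfra- cells (9476 with all), 5941 to 6642 for the interaction (7031), 246 to 1083 against GFP+ Pdgfra+ cells (849) and 2757 to 4642 against GFP+ Pdgfra- cells (4427). A population left with 1 library is assumed to vary like the others. The lowest counts against GFP+ Pdgfra+ and GFP+ Pdgfra- cells came without GFP- Pdgfra+ replicate 2 and without GFP+ Pdgfra- replicate 1. Against GFP+ Pdgfra+ cells, a limma fit lacking the mean-variance trend called 532 genes. Apart from single libraries left out, no other alternative moved the total of a comparison by more than 1.5 times. The 338 genes higher against GFP+ Pdgfra+ cells became 590 with a pseudocount of 10, 536 in voom, 204 with a pseudocount of 0.1 and 198 without the trend, and the 511 lower ones 334 without the trend.

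With the replicate number as a block, pairing the libraries, the 4 counts were 9541, 7104, 924 and 4530, and it changed the call of no reported gene. Without replicate 1 or 2 as a whole no residual degree of freedom remains, so those settings give values and no test.

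Of 105 genes reported between the GFP- populations, 9 lost the call under at least 1 of 21 alternatives with a test, 0 gained it, and only Col2a1 changed direction. Its log2 fold change was -0.18 with centring, between -0.95 (without GFP- Pdgfra+ replicate 2) and 1.5 (without GFP- Pdgfra+ replicate 1) over single libraries left out, and -0.44 without replicate 2. For the other 3 comparisons the genes given above with a fold change numbered 7 for the interaction, 13 against GFP+ Pdgfra+ and 4 against GFP+ Pdgfra- cells, and none of these calls changed. Of the 95 reported genes with a called interaction, 13 lost it under at least 1 alternative.

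List medians changed sign in 4 cases. That of the Schwann cell precursor list between the GFP- populations was -0.59 with quantile normalization, -0.45 with centring and -0.0201 without mitochondrial genes. That of the keratinocyte list was -0.12 and -0.0383 with the first 2. The niche list had an interaction of -0.0139 with quantile normalization, and the FGF list a median of 0.00692 against GFP+ Pdgfra+ cells with centring.

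Each population has 2 libraries, so the spread is borrowed across genes and populations. The libraries are mixtures, and the GFP- Pdgfra- libraries hold many red cell transcripts, so a fold change here is one between mixtures. Values follow a scaling that assumes most genes alike, and the share of genes higher in GFP- Pdgfra+ cells moves with it. Pdgfra itself was used for the sort. Surface or protein levels, spatial position and single cells were not analysed here. Tendon and cartilage transcripts cannot be assigned to the same or to different cells.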
